A study of Mus musculus with 4 samples.

Results

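The genes described here are 10 antioxidant genes of mouse macrophages that belong to the NRF2 pathway and to the glutathione and thioredoxin systems: Nfe2l2, Hmox1, Nqo1, Slc7a11, Gclc, Gclm, Gsr, Txnrd1, Srxn1 and Prdx1. They were chosen by gene symbol, and all 10 were found among 23735 loci, each alone on its locus. The study sequenced RNA of cultured peritoneal macrophages from mice of strain C57BL/6, 6 weeks old. An injection of 3% thioglycolate, which provokes sterile inflammation, had recruited the cells 3 days before collection. The Ch25h_KO group was labelled with the genotype ApoE-/-/Ch25h-/- (2 libraries) and the Ch25h_WT group the genotype ApoE-/-/Ch25h+/+ (2 libraries). Both groups were thus labelled as lacking apolipoprotein E, yet Apoe RNA was read in all 4 libraries, with values given below. Whether this RNA makes the protein was not tested. Ch25h makes 25-hydroxycholesterol, and the comparison addresses which transcripts differ when it is deleted on that background. The labels mention 12 mice per group and duplicates, without saying how the mice were spread over the libraries, so p-values describe the spread between these libraries, which may be partly technical.

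NRF2, the protein made from Nfe2l2, is a transcription factor that KEAP1 holds in the cytoplasm and marks for degradation. Oxidants and electrophiles that modify KEAP1 let NRF2 escape this degradation. NRF2 then pairs with small MAF proteins on antioxidant response elements in the promoters and enhancers of its targets. Those targets supply glutathione, regenerate thioredoxin and peroxiredoxin, and break down heme and quinones. In macrophages, which make superoxide and take up red cell heme and oxidised lipids, the pathway is known for limiting oxidative damage and for dampening inflammatory gene expression.

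Values are taken as FPKM, fragments counted relative to transcript length and to the mapped fragments of the library. Comparisons between genes rest on transcript lengths that no source used here gives. Each library held between 13813 and 13970 loci above 0 FPKM, and low values implied depths of 9640000 to 12500000 fragments. Ch25h was 4.25 and 5.53 FPKM in Ch25h_KO libraries, against 63.3 and 65.3 FPKM in Ch25h_WT libraries (limma adjusted p = 0.00313), the direction that the genotype labels give. Apoe was 3683 and 3373 FPKM in Ch25h_KO libraries, against 614 and 609.9 FPKM in Ch25h_WT libraries (limma adjusted p = 0.00127), although all 4 were labelled ApoE-/-. The Apoe difference and the Ch25h genotype run in parallel over the 4 libraries and cannot be told apart in any value given here. Of 7 macrophage marker loci, 7 were detected and 1 was higher at unadjusted p under 0.05, beside 9.38% of all tested loci. After adjustment with limma 0 of the 7 passed. Cd14, the higher one, was 6870 and 6751 FPKM in Ch25h_KO libraries, against 5178 and 5288 FPKM in Ch25h_WT libraries. Emr1, a surface receptor of mature macrophages, was 381 and 388 FPKM in Ch25h_KO libraries, against 418 and 425 FPKM in Ch25h_WT libraries, and Cd68 was 469 and 487 FPKM against 485 and 492 FPKM. In bulk RNA, fewer cells of a type and less RNA per cell cannot be told apart.

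The promoters of these genes were searched for TGACNNNGC, the core letters of the antioxidant response element, on both strands (GCNNNGTCA on the other). Other forms of the element were not searched, so a promoter without a match may still hold one. RefSeq promoters on GRCm38.p6 ran from 250 bases before to 50 bases after the transcription start. They were matched for 7 of the 10 genes, with 3 starts for Txnrd1, and not for Hmox1, Gclc and Gsr. The letters stood in 5 of these 9 promoters and in 4071 of 32851 promoters in the table (12.4%). The windows below show each match in capitals with up to 20 bases on each side, 5′ to 3′ on the strand of the gene, because these 5 genes hold the letters in this region.
Prdx1, chr4:116685446-116685494, plus strand: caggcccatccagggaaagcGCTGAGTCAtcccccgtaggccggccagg
Srxn1, chr2:152105532-152105573, plus strand: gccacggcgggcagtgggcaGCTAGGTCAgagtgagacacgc
Gclm, chr3:122245403-122245451, plus strand: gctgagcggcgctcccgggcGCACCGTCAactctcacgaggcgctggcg
Txnrd1, chr10:82859094-82859142, plus strand: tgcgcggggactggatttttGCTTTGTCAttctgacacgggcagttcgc
Nfe2l2, chr2:75704875-75704913, minus strand: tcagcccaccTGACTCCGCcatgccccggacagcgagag
Counted from the start, the first base of the match lay at -133 in Prdx1, 29 in Srxn1, -134 in Gclm, -92 in Txnrd1 and -240 in Nfe2l2. The Slc7a11 promoter held no match in this window, and the log2 change of Slc7a11 was 0.0064. The Nqo1 promoter, shown whole because Nqo1 had the largest difference of the 10 genes, held none either. A link between matches and changes was not tested.
Nqo1, chr8:107403156-107403455, minus strand: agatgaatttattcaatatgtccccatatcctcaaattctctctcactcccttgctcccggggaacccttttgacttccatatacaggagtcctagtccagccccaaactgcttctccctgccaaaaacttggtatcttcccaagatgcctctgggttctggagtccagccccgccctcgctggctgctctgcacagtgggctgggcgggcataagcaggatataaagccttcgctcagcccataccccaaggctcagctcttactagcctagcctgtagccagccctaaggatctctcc
A match is a description of letters and does not show binding.

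These genes were expressed at very different levels, and 9 of the 10 differed little between the groups. Hmox1 was the highest, with a mean of 2389 FPKM over the 4 libraries and rank 21 of the 10074 loci tested. Prdx1 followed at 1120 FPKM, then Txnrd1 at 265 FPKM, Nfe2l2 at 215 FPKM, Srxn1 at 163 FPKM and Slc7a11 at 123 FPKM. Gclm at 98.6 FPKM and Gsr at 92.4 FPKM were the single pair of neighbours in this order whose library values overlapped. Gclc was at 33.7 FPKM and Nqo1, the lowest, at 6.35 FPKM, rank 6601. Together the 10 genes made up 0.608% and 0.614% of the total FPKM in Ch25h_KO libraries, and 0.646% and 0.657% in Ch25h_WT libraries. Hmox1 and Prdx1 weigh most in these shares. The totals also differed, at 731119 and 716960 FPKM in Ch25h_KO libraries, against 700290 and 707929 FPKM in Ch25h_WT libraries.

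**Figure D1:**
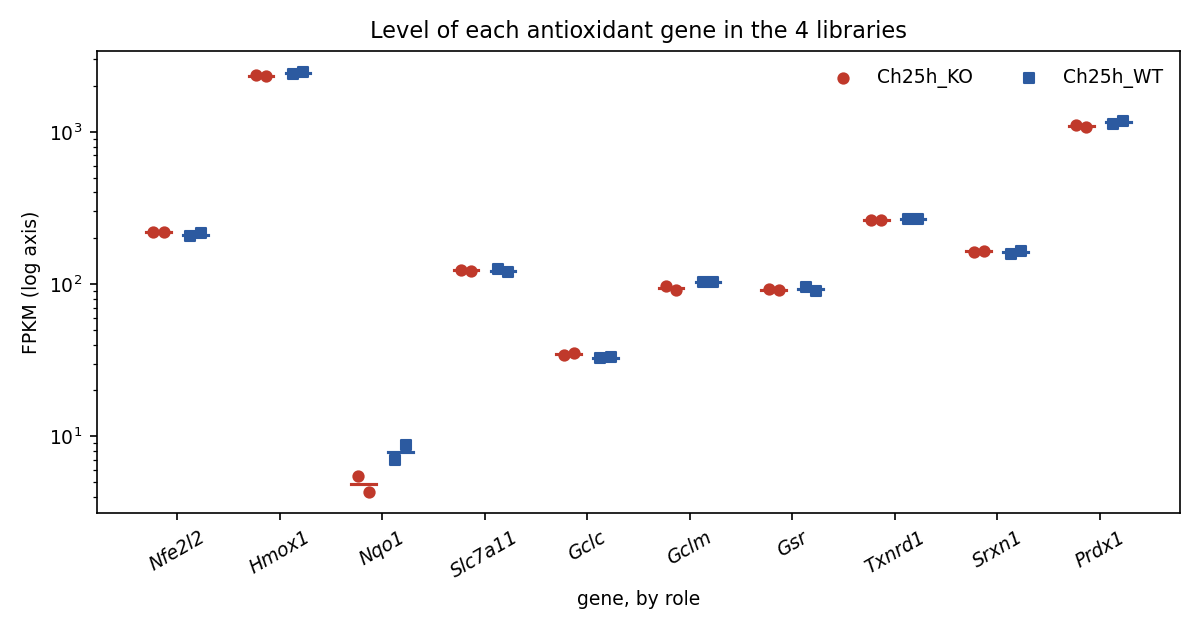
FPKM (log axis) of each gene in the 2 Ch25h_KO libraries (circles) and the 2 Ch25h_WT libraries (squares), with bars at the group means. Levels run from 4.29 FPKM for Nqo1 to 2478 FPKM for Hmox1, and Nqo1 is the gene whose groups are visibly apart on this scale.

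With limma on log2(FPKM + 1), a scale that understates the change of low genes, 0 of the 10 genes passed at a Benjamini-Hochberg adjusted p under 0.05, against 44 of all 10074 tested loci (0.437%). At unadjusted p under 0.05 there was 1 of the 10 genes, Nqo1 on the lower side, against 11.5% of tested loci on the lower side and 9.38% on the higher side. The groups did not overlap for 2 genes on the higher side (Nfe2l2 and Gclc) and 5 on the lower side (Hmox1, Nqo1, Gclm, Txnrd1 and Prdx1). Over all tested loci that was so for 23.4% on the higher side and 30.3% on the lower side. The median log2 change of the 10 genes was -0.013, beside -0.014 over all tested loci. The median size of the change, without its sign, was 0.059 in the 10 genes and 0.095 over all tested loci. These sets differ in level, which bears on counting error. Of the 10 genes, 6 were above 100 FPKM in every library, while 7.43% of tested loci had a mean above 100 FPKM. Sizes at matched levels were not compared. For the 9 genes other than Nqo1, the 95% intervals of the log2 change together spanned -0.28 to 0.21, which corresponds to folds of 0.822 to 1.15 on that scale, so larger changes lay outside the interval of each of them.

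**Figure D2:**
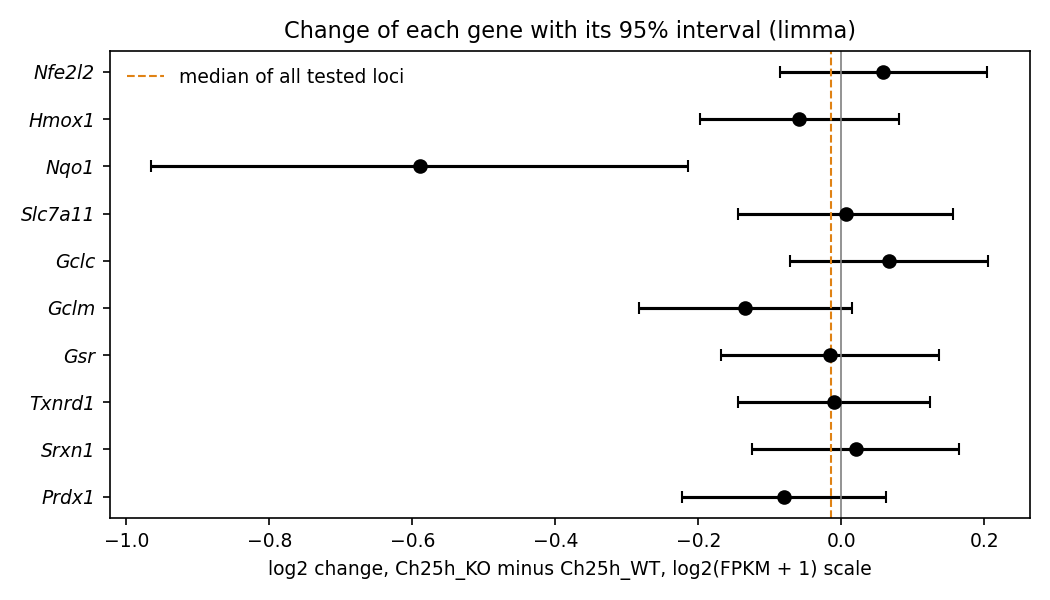
Log2 change of each gene, Ch25h_KO minus Ch25h_WT on the log2(FPKM + 1) scale, with its 95% interval from limma (2 libraries per group). The dashed line is the median of all tested loci (-0.014). The interval of Nqo1 runs from -0.96 to -0.21 and those of the other 9 genes include 0.

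Nfe2l2, the regulator itself, was 219 and 220.2 FPKM in Ch25h_KO libraries, against 206 and 216 FPKM in Ch25h_WT libraries. Both Ch25h_KO values lay above both Ch25h_WT values, but by less than the Ch25h_WT libraries differed from each other. Its log2 change was 0.059 (SE 0.055, limma adjusted p = 0.583) and it did not pass. The change was 0.034 with equal totals without Saa3, 0.026 without Ch25h_WT replicate 1 and 0.093 without Ch25h_WT replicate 2. NRF2 is controlled mainly through the stability of its protein, which RNA does not show. Keap1, the adaptor that targets NRF2 for degradation, was 15.9 and 13.6 FPKM in Ch25h_KO libraries, against 16.7 and 15.7 FPKM in Ch25h_WT libraries (log2 change -0.13, SE 0.091, limma adjusted p = 0.467). These values overlapped between the groups, and the change was -0.24 without Ch25h_KO replicate 1 and -0.022 without Ch25h_KO replicate 2. The ratio of Nfe2l2 to Keap1 FPKM was 13.8 and 16.2 in Ch25h_KO libraries and 12.3 and 13.8 in Ch25h_WT libraries.

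Among the enzymes that handle heme and quinones, Hmox1, the heme oxygenase that turns heme into biliverdin, iron and carbon monoxide, was 2347 and 2335 FPKM in Ch25h_KO libraries, against 2398 and 2478 FPKM in Ch25h_WT libraries. The Ch25h_KO values were the lower ones without overlap, and the means differed by -3.98%. The log2 change was -0.058 (SE 0.053, limma adjusted p = 0.571, 95% interval -0.20 to 0.08), and it was -0.18 under quantile normalization and -0.035 without Ch25h_WT replicate 2. Erythroid markers, a sign of red cell RNA and so of heme, summed to 46.8 and 53.0 FPKM in Ch25h_KO libraries and 32.4 and 35.8 FPKM in Ch25h_WT libraries. Of 4 tested erythroid loci, 3 were higher at unadjusted p under 0.05, beside 9.38% of all tested loci. After adjustment with limma 0 of the 4 passed. The part of these markers in the Hmox1 values was not tested.

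Nqo1, the quinone reductase that is a standard readout of NRF2 activity, was 5.44 and 4.29 FPKM in Ch25h_KO libraries, against 6.93 and 8.73 FPKM in Ch25h_WT libraries. Both Ch25h_KO libraries were below both Ch25h_WT libraries, and the means differed by -37.9%. Group means were 4.87 ± 0.808 FPKM in Ch25h_KO libraries and 7.83 ± 1.27 FPKM in Ch25h_WT libraries (SD, n = 2 each). Its log2 change was -0.59 (SE 0.14, limma adjusted p = 0.137, 95% interval -0.96 to -0.21), and the fit across all genes did not call it. With limma's trend and robust options set together, it passed at limma adjusted p = 0.0322. That fit called 3.76% of all tested loci on the lower side. The trend option lets the spread depend on the level, the robust option allows for loci of unusual spread, and their separate parts were not tested. The values rested on about 87 and 64 fragments in Ch25h_KO libraries and 135 and 136 in Ch25h_WT libraries, with counting errors of 8.57% to 12.5%. All other genes of the 10 had at least 1133 fragments per library and counting errors of at most 2.97%. Mast cell markers were lower in the same libraries, summing to 147 and 152 FPKM in Ch25h_KO libraries and 215 and 221 FPKM in Ch25h_WT libraries. Of 5 tested mast cell loci, 5 were lower at unadjusted p under 0.05, beside 11.5% of all tested loci. After adjustment with limma 0 of the 5 passed. Over the 4 libraries the proteases Cma1, Tpsb2, Mcpt4 and Cpa3 lay between 17.9 and 88.4 FPKM, Kit between 3.56 and 5.22 FPKM, and the receptor subunit Ms4a2 between 0 and 0.236 FPKM. The part of these cells in the Nqo1 values was not tested.

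Of the glutathione genes among the 10, Slc7a11 encodes the light chain of the cystine importer xCT, which brings in the cysteine for glutathione, and was 123 and 122 FPKM in Ch25h_KO libraries, against 126 and 119 FPKM in Ch25h_WT libraries. The Ch25h_KO values lay within the Ch25h_WT range. Its log2 change of 0.0064 (SE 0.057, limma adjusted p = 0.966) turned to -0.019 when libraries were given equal totals without Saa3, to -0.035 under quantile normalization and to -0.034 without Ch25h_WT replicate 2.

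Glutamate-cysteine ligase, the rate-limiting enzyme of glutathione synthesis, has a catalytic subunit (Gclc) and a modifier subunit (Gclm), and the pair lay on opposite sides. Gclc was 34.0 and 35.0 FPKM in Ch25h_KO libraries, against 32.7 and 33.0 FPKM in Ch25h_WT libraries, higher without overlap (log2 change 0.067, SE 0.053, limma adjusted p = 0.513). Gclm was 96.5 and 91.5 FPKM in Ch25h_KO libraries, against 103 and 104 FPKM in Ch25h_WT libraries, lower without overlap (log2 change -0.13, SE 0.057, limma adjusted p = 0.273). Neither passed. The ratio of Gclm to Gclc FPKM was 2.84 and 2.62 in Ch25h_KO libraries and 3.14 in each Ch25h_WT library. The Gclm value was thus the higher one in all 4 libraries, which does not give relative transcript numbers without the transcript lengths used. With 2 libraries per group an exact permutation test of this ratio cannot go below 0.333 (two-sided), and none was run.

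Gsr, the reductase that restores oxidised glutathione with NADPH, was 92.8 and 90.9 FPKM in Ch25h_KO libraries, against 95.6 and 90.2 FPKM in Ch25h_WT libraries. The Ch25h_KO values lay inside the Ch25h_WT range, and the log2 change was -0.016 (SE 0.058, limma adjusted p = 0.904), or 0.025 without Ch25h_WT replicate 1.

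Of the thioredoxin genes, Txnrd1, the cytosolic selenoenzyme that reduces thioredoxin, was 263 and 265 FPKM in Ch25h_KO libraries, against 265.6 and 265.7 FPKM in Ch25h_WT libraries. The means differed by -0.70%, and the log2 change was -0.010 (SE 0.051, limma adjusted p = 0.932, 95% interval -0.14 to 0.12). Srxn1 encodes sulfiredoxin, which repairs over-oxidised peroxiredoxins, and was 163 and 165 FPKM in Ch25h_KO libraries, against 158 and 165 FPKM in Ch25h_WT libraries. The groups overlapped, and the log2 change of 0.020 (SE 0.055, limma adjusted p = 0.866) turned to -0.0052 with equal totals without Saa3, to -0.028 under quantile normalization and to -0.012 without Ch25h_WT replicate 1. Prdx1, an abundant peroxiredoxin that removes hydrogen peroxide, was 1103 and 1074 FPKM in Ch25h_KO libraries, against 1133 and 1169 FPKM in Ch25h_WT libraries. The Ch25h_KO values were lower without overlap, with a difference of -5.44% between the means (log2 change -0.080, SE 0.054, limma adjusted p = 0.453). Prdx1 has processed pseudogenes of similar sequence, which leaves its level uncertain.

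A wider list of 100 genes of the pathway, without the 10, was read from the same fit. All 100 were found and 88 reached the filter, a mean of 1 FPKM or more over the 4 libraries. Of these, 1 rose over all genes, 0 fell, and 10 were higher and 11 lower at unadjusted p under 0.05 with limma. Over all tested loci 0.437% passed. At unadjusted p under 0.05 with limma, 9.38% of them were higher and 11.5% lower, close to the unadjusted shares in this list. The median log2 change of the 88 genes was -0.020. With the trend and robust options 5 of the 88 were called higher and 8 lower, beside 4.04% of all tested loci called higher and 3.76% lower, 7.80% together.

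**Figure D3:**
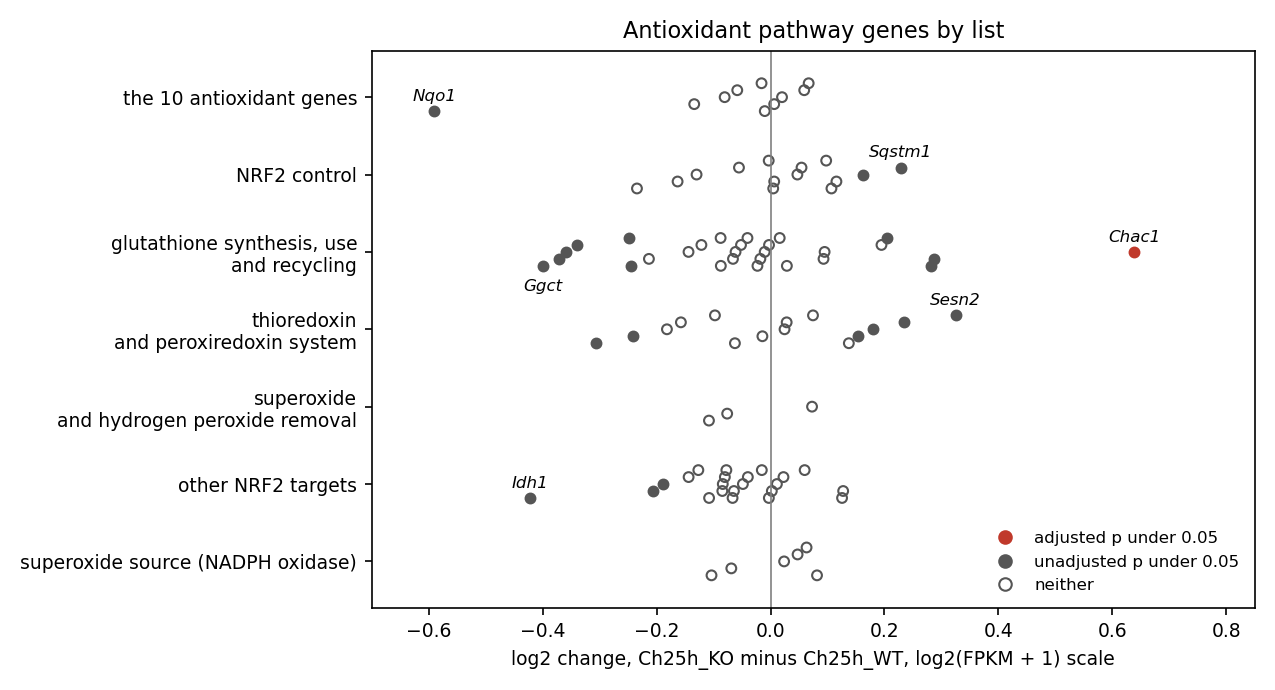
Log2 change, Ch25h_KO minus Ch25h_WT, of the 10 antioxidant genes and 88 further pathway genes by list, each point 1 gene; filled points had an unadjusted limma p under 0.05 and the red point an adjusted p under 0.05. Chac1 at 0.64 is the single red point, and Nqo1 at -0.59 lies farthest to the left.

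The gene that rose was Chac1, which encodes an enzyme that degrades glutathione and is known as a target of the stress factor ATF4. Chac1 was 32.9 and 33.1 FPKM in Ch25h_KO libraries, against 21.6 and 20.1 FPKM in Ch25h_WT libraries. The groups were well apart, by 0.64 on the log2 scale (SE 0.060, limma adjusted p = 0.0434). The call was lost with a pseudocount of 0.1 or 0.5, with no filter on low values, with the replicate number as a block (limma adjusted p = 0.142) and with any library left out, with limma adjusted p between 0.0613 and 0.230 in these settings. The log2 change itself lay between 0.59 and 0.69 in every setting. The ratio of Chac1 to Gclc FPKM, a degrading against a synthesising enzyme, was 0.969 and 0.947 in Ch25h_KO libraries and 0.661 and 0.610 in Ch25h_WT libraries. The summed level of the neutrophil marker loci was higher in the same libraries. It was 115 and 116 FPKM in Ch25h_KO libraries and 71.1 and 81.5 FPKM in Ch25h_WT libraries. Most of it was S100a8, at 99.0 and 98.7 FPKM in Ch25h_KO libraries, against 56.3 and 66.6 FPKM in Ch25h_WT libraries. Of 7 neutrophil loci found, S100a8 and S100a9 were tested. Both were higher at unadjusted p under 0.05, beside 9.38% of all tested loci, and 0 passed after adjustment with limma. The other 5 (Elane, Mpo, Ngp, Ltf and Camp) were at most 0.880 FPKM in Ch25h_KO libraries and at most 1.36 FPKM in Ch25h_WT libraries. Elane and Mpo were at 0 in both Ch25h_KO libraries, and Ngp and Ltf in both Ch25h_WT libraries. Camp was lower without overlap, at 0.880 and 0.471 FPKM in Ch25h_KO libraries, against 0.906 and 1.36 FPKM in Ch25h_WT libraries. The part of neutrophils in the Chac1 values was not tested.

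Of 28 tested genes of glutathione synthesis, use and recycling, Chac1 rose and no other passed, while 4 were higher (Chac1 included) and 6 lower at unadjusted p under 0.05 (9.38% and 11.5% of all tested loci), with a median log2 change of -0.046. Gss, the synthetase of the second step of glutathione synthesis, was 10.5 and 9.13 FPKM in Ch25h_KO libraries, against 13.3 and 12.6 FPKM in Ch25h_WT libraries (log2 change -0.37, limma adjusted p = 0.122). Ggct, which releases the glutamate-derived part of gamma-glutamyl peptides, was 7.38 and 7.98 FPKM in Ch25h_KO libraries, against 11.0 and 9.93 FPKM in Ch25h_WT libraries (log2 change -0.40, limma adjusted p = 0.110). Gpx3, the secreted glutathione peroxidase, was 7.04 and 7.11 FPKM in Ch25h_KO libraries, against 9.64 and 9.10 FPKM in Ch25h_WT libraries (log2 change -0.36, limma adjusted p = 0.0966). These 3 genes were lower without overlap and did not pass, and with the trend and robust options each was called, at limma adjusted p of 0.0271, 0.0210 and 0.0233 in that order.

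On the higher side, Slc3a2, the heavy chain that pairs with the Slc7a11 product in xCT and with other amino acid transporters, was 342 and 346 FPKM in Ch25h_KO libraries, against 293 and 304 FPKM in Ch25h_WT libraries (log2 change 0.21, limma adjusted p = 0.153, or 0.0135 with the trend and robust options). The heavy chain was thus higher without overlap while the light chain, given above, overlapped, and the difference between the 2 genes was not tested. The glutathione transferase Gstt2 was 3.37 and 3.36 FPKM in Ch25h_KO libraries, against 2.77 and 2.39 FPKM in Ch25h_WT libraries (limma adjusted p = 0.142). The main intracellular peroxidases overlapped between the groups, with Gpx1 at 266 and 247 FPKM in Ch25h_KO libraries and 252 and 266 FPKM in Ch25h_WT libraries (log2 change -0.018, limma adjusted p = 0.906). Gpx4, which reduces lipid peroxides in membranes, was 181 and 162 FPKM in Ch25h_KO libraries and 154 and 167 FPKM in Ch25h_WT libraries (log2 change 0.093, limma adjusted p = 0.559, or 0.012 without Ch25h_KO replicate 1 and 0.17 without Ch25h_KO replicate 2).

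Of 14 tested genes that control NRF2, 0 passed with limma, and 2 were higher and 0 lower at unadjusted p under 0.05, beside 9.38% and 11.5% of all tested loci. Sqstm1, the autophagy receptor p62 that binds KEAP1 and is itself an NRF2 target, was 947 and 954 FPKM in Ch25h_KO libraries, against 819 and 803 FPKM in Ch25h_WT libraries. The groups were apart by more than their spread, by 0.23 on the log2 scale (SE 0.052, limma adjusted p = 0.126), and the trend and robust options called it at limma adjusted p = 0.00532. Rbx1, the RING subunit of the KEAP1 ubiquitin ligase, was 36.7 and 34.6 FPKM in Ch25h_KO libraries, against 31.1 and 32.3 FPKM in Ch25h_WT libraries (limma adjusted p = 0.233). Bach1, a repressor that competes with NRF2 for its sites at Hmox1 and other genes, was 9.87 and 9.71 FPKM in Ch25h_KO libraries and 9.98 and 9.53 FPKM in Ch25h_WT libraries. Its values overlapped, and the log2 change of 0.0047 (limma adjusted p = 0.975) turned to -0.018 with equal totals without Saa3.

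Of 15 tested thioredoxin and peroxiredoxin genes, 0 passed with limma, and 4 were higher and 2 lower at unadjusted p under 0.05, beside 9.38% and 11.5% of all tested loci. Sesn2, a stress-induced sestrin that restrains mTORC1, was 25.8 and 24.5 FPKM in Ch25h_KO libraries, against 19.96 and 19.8 FPKM in Ch25h_WT libraries (log2 change 0.32, limma adjusted p = 0.102). The mitochondrial and cytosolic peroxiredoxin Prdx5 was 1915 and 1811 FPKM in Ch25h_KO libraries, against 1609 and 1559 FPKM in Ch25h_WT libraries (log2 change 0.23, limma adjusted p = 0.144). Both were higher without overlap, and the trend and robust options called both, at limma adjusted p of 0.0124 and 0.00936 in that order. Prdx5 thus stood on the other side from Prdx1, which was lower without overlap; the difference between the 2 genes was not tested. Msra, which repairs oxidised methionine, was 12.6 and 12.1 FPKM in Ch25h_KO libraries, against 10.7 and 10.8 FPKM in Ch25h_WT libraries (limma adjusted p = 0.177). The log2 change of Sesn3 was -0.24 (limma adjusted p = 0.122) and that of Txnrd3, a thioredoxin reductase of low level here, -0.31 (limma adjusted p = 0.188). Txn1, the substrate of Txnrd1, was 486 and 467 FPKM in Ch25h_KO libraries and 444 and 461 FPKM in Ch25h_WT libraries (log2 change 0.075, limma adjusted p = 0.502).

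Of 22 other NRF2 targets tested, 0 passed with limma, and 0 were higher and 3 lower at unadjusted p under 0.05, beside 9.38% and 11.5% of all tested loci. The median log2 change was -0.065, with 6 genes above 0 and 16 below, beside 4599 above and 5475 below among all tested loci. Idh1, a cytosolic source of NADPH, was 35.7 and 35.6 FPKM in Ch25h_KO libraries, against 46.7 and 49.4 FPKM in Ch25h_WT libraries (log2 change -0.42, SE 0.057, limma adjusted p = 0.0783). It was lower without overlap and was called when the filter was raised to a mean of 5 FPKM (limma adjusted p = 0.0384) and with the trend and robust options (limma adjusted p = 0.00178). Pgd, an NADPH-producing enzyme of the pentose phosphate pathway, was 240 and 241 FPKM in Ch25h_KO libraries, against 276 and 273 FPKM in Ch25h_WT libraries (log2 change -0.19, limma adjusted p = 0.158, or 0.0152 with the trend and robust options). The first enzyme of that pathway, G6pdx, overlapped between the groups at 88.6 and 91.3 FPKM in Ch25h_KO libraries and 86.9 and 90.1 FPKM in Ch25h_WT libraries (limma adjusted p = 0.847). Slc48a1, a transporter that moves heme out of the phagolysosome toward heme oxygenase, was 90.6 and 94.0 FPKM in Ch25h_KO libraries, against 107 and 107 FPKM in Ch25h_WT libraries (log2 change -0.21, limma adjusted p = 0.150, or 0.0187 with the trend and robust options). The ferritin heavy chain gene Fth1, which stores the iron that heme breakdown frees and has many pseudogenes, was 35937 and 34216 FPKM in Ch25h_KO libraries and 34046 and 33238 FPKM in Ch25h_WT libraries (log2 change 0.060, limma adjusted p = 0.588).

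Genes that make superoxide and genes that remove it were close between the groups. Of 3 tested genes that remove superoxide and hydrogen peroxide, 0 passed with limma and 0 had an unadjusted p under 0.05. Sod2, the mitochondrial superoxide dismutase induced by inflammatory signals, was 326 and 321 FPKM in Ch25h_KO libraries, against 306 and 308 FPKM in Ch25h_WT libraries (log2 change 0.073, limma adjusted p = 0.470). Cat, the catalase gene, was 38.7 and 39.7 FPKM in Ch25h_KO libraries, against 42.9 and 41.7 FPKM in Ch25h_WT libraries (log2 change -0.11, limma adjusted p = 0.331). Of 6 tested subunits of the phagocyte NADPH oxidase, 0 passed with limma and 0 had an unadjusted p under 0.05, with log2 changes between -0.10 and 0.08.

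**Figure D4:**
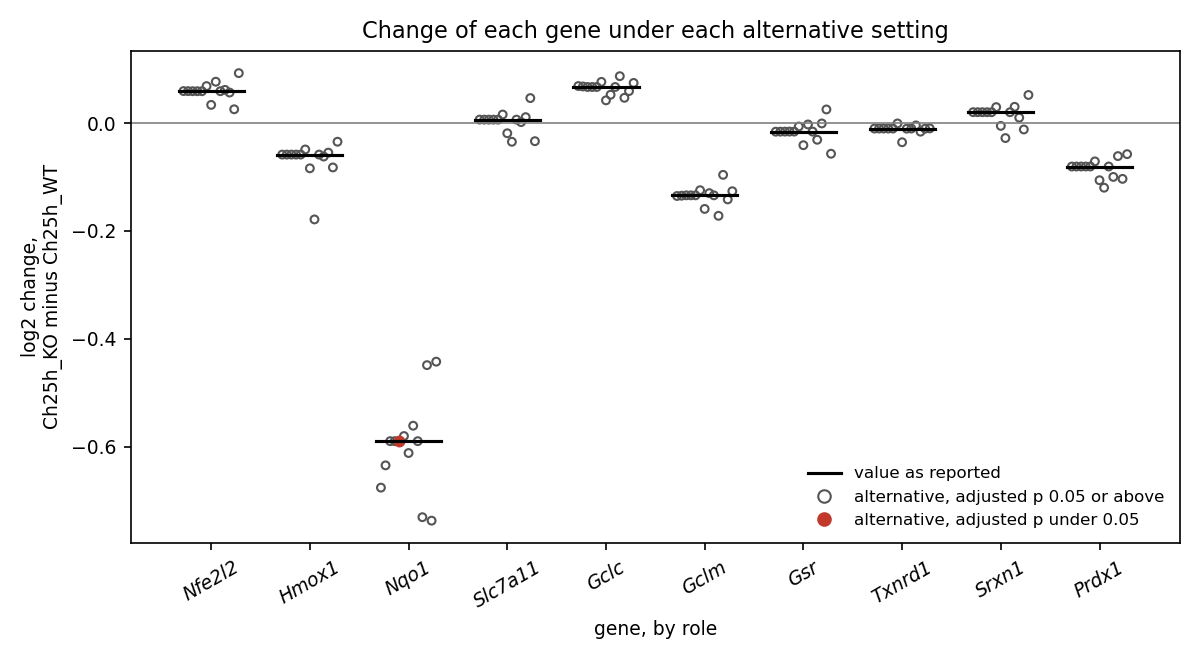
Log2 change, Ch25h_KO minus Ch25h_WT, of each of the 10 genes as reported (bar) and under each of 13 alternative settings (points); the red point had an adjusted p under 0.05. Nqo1 stays between -0.74 and -0.44 and is the single gene with a red point, while Slc7a11, Srxn1 and Gsr lie on both sides of 0.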

How the data were processed

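RNA of 4 libraries was compared, 2 per genotype. Per the submitters' processing notes, bcl2fastq, TopHat2 2.0.14 and Cufflinks 2.2.1 were used with the mouse build mm9; for annotation, strandedness and scaling, no source used here gives them. The authors deposited values per locus whose range and decimals fit FPKM; the header names no unit. The 24192 lines were joined into 23735 loci (0 sample columns left out). Depth was estimated from low values, of which 94.8% of 2274 loci held whole fragments (tolerance 0.01), with GENCODE vM21 transcript lengths; fragments per gene are approximate, use its longest coding transcript and cover counting error only. Without strand, overlapping genes cannot be told apart.

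Limma 3.58.1 (R 4.3.3) was fitted on log2(FPKM + 1) to the 10074 loci averaging 1 FPKM or more. Genotype was the single term, with Benjamini-Hochberg adjusted p and a threshold of 0.05. The fit was tested on simulated data with spreads shuffled over loci, which does not cover a spread that depends on the level. Alternatives covered pseudocount, filter, scaling, limma options, replicate block and leaving out each library. Genes named are the 10, Ch25h, Apoe, called pathway genes, the 3 with the smallest p per direction and list, and fixed examples (Keap1, Bach1, Gpx1, Gpx4, Txn1, Sod2, Cat, Fth1 and G6pdx). The genes and lists were chosen with earlier results of these data known.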

Additional observations from a re-analysis of the deposited data

How the results depend on the processing

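The count of 44 called loci became 29 with a pseudocount of 0.5, 18 with no filter on low values, 175 with a mean of at least 5 FPKM, 786 with limma's trend and robust options, and 13 to 21 with a library left out, where the lone library was assumed to vary like the other group. Of the 10 antioxidant genes 0 were called in each setting except 1 (Nqo1) with the trend and robust options. The count of called pathway genes, 1 as reported, became 0 with pseudocounts of 0.1 and 0.5 and with no filter, 3 with a mean of at least 5 FPKM, 13 with the trend and robust options, and 0 with any library left out. The median log2 change of the 10 genes was -0.0035 with median centring, -0.038 with equal totals without Saa3, -0.031 under quantile normalization, and between -0.034 and -0.0083 with a library left out. Ch25h and Apoe kept their direction and their call in every setting. The cause of these shifts was not tested.

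With the replicate number as a block, 6 loci and 0 pathway genes were called, and Chac1 had a limma adjusted p of 0.142. Deviations of same-numbered libraries correlated at 0.012, so the numbers are not taken to pair the libraries.

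Values near 0 changed sign. Without Saa3 in the totals the log2 changes were -0.0052 for Srxn1, -0.019 for Slc7a11, -0.018 for Bach1 and -0.0025 for G6pdx, and under quantile normalization -0.028 for Srxn1 and -0.035 for Slc7a11. With a library left out the changes ran from -0.012 to 0.052 for Srxn1, -0.034 to 0.046 for Slc7a11, -0.057 to 0.025 for Gsr, -0.025 to 0.035 for Bach1, -0.071 to 0.036 for Gpx1 and -0.0030 to 0.048 for G6pdx. Of the other genes near 0, Txnrd1 ran from -0.016 to -0.0043, Txn1 from 0.046 to 0.10 and Fth1 from 0.024 to 0.095 there, and under quantile normalization Fth1 was 0 and Sod2 0.0098. With median centring Txnrd1 was -0.00064 and Gsr -0.0063. Nqo1 ran from -0.74 to -0.44 with a library left out, at limma adjusted p of 0.254 to 0.362.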
